A study of Mus musculus with 96 samples.

Results

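The neurotrophin family was followed here through 5 genes, the ligands Bdnf and Ntf3 and the receptors Ntrk2, Ntrk3 and Ngfr, taken by gene name from a table of 56748 genes. Of the 5, all passed the filter on low counts in cortex and in muscle of both sexes and in male liver, and 4 passed it in female liver, where Ntrk3 did not. Messenger RNA was sequenced from cerebral cortex, liver and skeletal muscle of mice fed ad libitum (AL) or kept on intermittent fasting (IF), and the comparison asks how the diet alters gene activity in each tissue. The male mice, numbered 1 to 16, were C57BL/6 with no genetic change named, began the diets at 6 weeks of age and stayed on them for 4 months. IF meant 16 h without food each day, and AL meant food at all times. The paper places the sampling of the IF mice at the end of a fast, though its stated hours of sampling run past that end. The last fast and the months of IF cannot be told apart. Mice 25 to 40 were female; their strain, hours of fasting, time on the diet and age are not in the labels, and the paper describes males alone. Each group of 1 tissue, sex and diet held 8 mice, with 7 used for cortex of AL males, and the 3 tissues of a mouse carry 1 number. Total counts per library ran from 26097314 to 49838004. Levels are CPM (the count of a gene scaled to the total of its library), and at the median total 1 CPM is 36.1 counts, so levels under 1 CPM rest on few counts.

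Neurotrophins are secreted growth factors, made as longer precursors and cleaved by furin-like convertases, that keep neurons alive, shape dendrites and tune synapses. BDNF and neurotrophin-4 bind the receptor tyrosine kinase TrkB, neurotrophin-3 binds TrkC, and all of them, with their precursors, bind the receptor p75. In adult cortex Bdnf is made mainly by excitatory neurons, from several promoters that respond to synaptic activity, while TrkB is carried by neurons and, in a form without the kinase, by astrocytes.

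The 5 genes lie on 5 chromosomes, so their positions do not link them (mouse build GRCm39). Bdnf (ENSMUSG00000048482, chromosome 2, 109505045 to 109557352, plus strand) is the gene of brain-derived neurotrophic factor and has 16 annotated start sites over 18 transcripts. Ntf3 (ENSMUSG00000049107, chromosome 6, 126078375 to 126143873, minus strand) is that of neurotrophin-3. Ntrk2 (ENSMUSG00000055254, chromosome 13, 58954383 to 59281784, plus strand) is that of TrkB, and Ntrk3 (ENSMUSG00000059146, chromosome 7, 77825707 to 78387760, minus strand) that of TrkC. Ngfr (ENSMUSG00000000120, chromosome 11, 95459644 to 95478561, minus strand) is that of p75. Counts are per gene, so the kinase and truncated forms of Ntrk2 and of Ntrk3 are pooled, and so are the Bdnf transcripts. Long non-coding genes or unclassified loci overlap all 5 (7 at Ntrk2, 6 at Ntrk3 and 1 each at Bdnf, Ntf3 and Ngfr), and the strand setting of the counting is not stated, so their reads may enter these counts.

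The labels were checked before the values were read. In 95 of the 96 libraries Xist, transcribed from the inactive X chromosome, and Ddx3y, on the Y chromosome, went with the sex label at a level of 10 CPM. The exception was the cortex library of AL male mouse 1, with 213 CPM of Xist, where the other male cortex libraries had at most 0.229 CPM of Xist. Over 13209 genes it lay closest to the cortex library of IF female mouse 40, with a chi-square per degree of freedom of 4.92 against 11.7 for the next, female mouse 39. It held 17.4 CPM of Bdnf, 1.002 of Ntf3 and 356 of Ntrk2. It was left out, and the results that change when it is put back are given below with both values. Tissue labels went with their markers, since the neuronal Snap25 was at 1520 to 3199 CPM in cortex and at most 0.277 elsewhere, the hepatocyte Alb at 23146 to 69838 in liver, and the muscle actin Acta1 at 37929 to 54309 in muscle.

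Bdnf, Ntrk2 and Ntrk3 were cortex genes, and Ntf3 and Ngfr were low everywhere. In AL males the median level of Ntrk2 was 429 CPM in cortex, 4.27 in muscle and 0.684 in liver. Ntrk3 stood at 97.8 CPM in cortex, 0.591 in muscle and 0.545 in liver, and Bdnf at 30.04, 0.556 and 0.692. Ntf3 stood at 2.11 CPM in cortex, 1.38 in muscle and 0.560 in liver, and Ngfr at 1.73, 0.578 and 2.10. Set beside each other per length in cortex of AL males, the mean CPM per kb was 22.3 ± 1.18 (SD, n = 7) for Ntrk2, 4.996 ± 0.709 for Bdnf, 3.30 ± 0.237 for Ntrk3, 1.20 ± 0.474 for Ntf3 and 0.565 ± 0.173 for Ngfr. The first 3 neighbours in that order stood apart by more than their spread, while Ntf3 and Ngfr, at the bottom, came within it. The same order held in AL females, where Ntrk2 was at 19.4 CPM per kb, Bdnf at 3.59, Ntrk3 at 2.97, Ntf3 at 0.871 and Ngfr at 0.729, and there Bdnf and Ntrk3 were within their spread of each other. In cortex of IF males Bdnf (3.60 ± 0.711, n = 8) came down to the level of Ntrk3 (3.52 ± 0.337) on this scale, and Ntf3 (0.510 ± 0.189) to that of Ngfr (0.628 ± 0.160).

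Between tissues the fits and the CPM levels above are not on the same scale. The factors of the fit (TMM) move the difference of cortex from liver down by 0.83 on the log2 scale in males and 0.63 in females at the median gene, that of cortex from muscle down by 1.05 and 0.88, and that of muscle from liver up by 0.22 and 0.25, against library totals alone, a scaling added after seeing the data. It is named below where it changes a call or a direction.

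Tested between the tissues of the same AL mice, the members' counts lie near what most genes do, since 79.1 to 84.0% of all genes were called in each pair of tissues. Called means an adjusted p under 0.05 by edgeR here and below. In males 5 of 5 were called between cortex and liver (83.4% of all genes), 4 higher in cortex, with log2 differences of 8.54 for Ntrk2, 6.46 for Ntrk3, 4.34 for Bdnf and 0.73 for Ntf3 (adjusted p = 0.0498), and Ngfr lower, at -0.96. The call on Ntf3 was lost without the filter on low counts (adjusted p = 0.0508), and that on Ngfr by library totals alone (-0.13, adjusted p = 0.670). Between cortex and muscle of males 4 of 5 were called (80.2% of all genes), all higher in cortex, with Ntrk3 at 6.14, Ntrk2 at 5.46, Bdnf at 5.001 and Ngfr at 0.75, a call on Ngfr that was lost without the term for the mouse (adjusted p = 0.0516). Ntf3, at -0.56 (adjusted p = 0.113), was not called and turned to 0.48 by library totals alone. Muscle and liver of males differed in 3 of 5 (79.2% of all genes), with Ntrk2 at 3.09 and Ntf3 at 1.30 higher in muscle and Ngfr at -1.71 lower; Bdnf (-0.66) and Ntrk3 (0.33) were not called, though Bdnf was without the term for the mouse (adjusted p = 0.0291) and by library totals alone (-0.89, adjusted p = 0.0125).

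In AL females the same 3 genes set cortex apart. Between cortex and liver 3 of 5 were called (84.0% of all genes), Ntrk3 at 7.33, Ntrk2 at 6.58 and Bdnf at 5.20 on the log2 scale, and neither Ntf3 (-0.24) nor Ngfr (-0.14), which turned to 0.40 and 0.49 by library totals alone. Between cortex and muscle 4 of 5 were called (80.5% of all genes), Ntrk3 at 5.67, Ntrk2 at 5.17 and Bdnf at 3.07 higher in cortex and Ntf3 at -1.18 lower, a call lost by library totals alone (-0.29, adjusted p = 0.278). Ngfr, at -0.50, was called there only without the term for the mouse (-0.55, adjusted p = 0.0382), and turned to 0.38 by library totals alone. Muscle stood above liver in 4 of 5 (79.1% of all genes), with Bdnf at 2.13, Ntrk3 at 1.65, Ntrk2 at 1.41 and Ntf3 at 0.95, and Ngfr at 0.36 was not called.

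**Figure D1:**
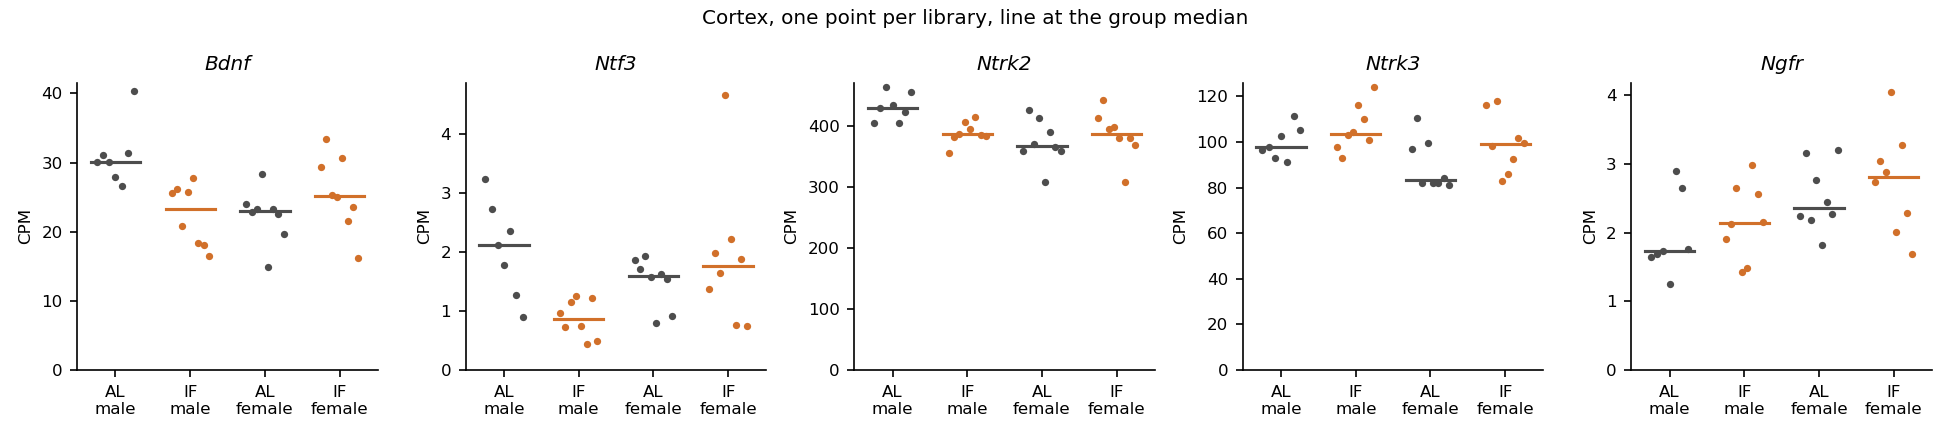
Level in CPM of the 5 genes in each cortex library, 1 panel a gene, by sex and diet, with 1 point per mouse and a line at the group median, the library of mouse 1 left out. In males, 7 of 8 IF mice lie below the lowest AL mouse for Bdnf, 4 of 8 for Ntf3 and 6 of 8 for Ntrk2, and in females the diets overlap for all 5. The share of all genes that separate as far was not counted.

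Of the ligands, Bdnf was lower in cortex of IF than of AL males. Its level ran from 26.7 to 40.3 CPM with a median of 30.04 in AL males, and from 16.4 to 27.8 with a median of 23.2 in IF males. Of the 8 IF mice, 7 lay under the lowest AL mouse. For such counts, here and below, the share of all genes that separate as far was not counted. Ntf3 ran from 0.896 to 3.23 CPM with a median of 2.11 in AL males, and from 0.434 to 1.25 with a median of 0.856 in IF males. All 8 IF mice lay under the AL median and 4 lay under the lowest AL mouse, so the groups overlap at the low end of AL. By edgeR, Bdnf fell by 0.46 on the log2 scale (SE 0.12, adjusted p = 0.0249) and Ntf3 fell by 1.21 (SE 0.28, adjusted p = 0.0156). In bulk tissue, fewer cells of a type and less RNA per cell cannot be told apart. Called were 2 of 5 members, both down, beside 7.21% of all 18462 genes tested (699 up and 633 down), and the members' median log2 fold change was -0.13 beside -0.00 for all genes.

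In cortex of females the ligands did not separate the diets. Bdnf ran from 14.8 to 28.4 CPM with a median of 23.0 in AL, and from 16.1 to 33.3 with a median of 25.2 in IF. Ntf3 ran from 0.803 to 1.93 CPM with a median of 1.60 in AL, and from 0.752 to 4.65 with a median of 1.76 in IF, where mouse 36 held the top value. The ranges overlap for both genes. Without IF mice 34 and 36, left out after seeing the data for their choroid plexus markers, Ntf3 stood at -0.0598. Mouse 36 also stood apart in hippocampus markers, at 290 CPM against at most 139 in the other female cortex libraries, and without it alone, also chosen after seeing the data, Ntf3 stood at 0.0128. With those markers as a covariate it stood at 0.29 (adjusted p = 0.612). By all mice the log2 fold change by edgeR was 0.19 for Bdnf (SE 0.12, adjusted p = 0.545) and 0.35 for Ntf3 (SE 0.31, adjusted p = 0.651). None of the 5 members was called in female cortex, beside 0.0109% of all 18403 genes, which is 2 genes by edgeR, 2069 genes at an unadjusted p under 0.05 and 73 by DESeq2. The 2 genes, named after their values were seen, were Gm11263 (log2 fold change -1.15) and mt-Atp6 (-2.43), a subunit of the mitochondrial ATP synthase, and without AL mouse 26 the count was 254.

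The difference between the sexes was itself tested as an interaction, here the female effect less the male effect. Sex goes with the set of mice, and the fasting hours, time on the diet, age and strain of the females are not given. In every interaction below, sex therefore cannot be told apart from those differences. For Bdnf it was 0.65 on the log2 scale (SE 0.18, adjusted p = 0.0493), and for Ntf3 1.57 (SE 0.44, adjusted p = 0.0518). The call on Bdnf, 1 of 5 members beside 2.03% of all 19547 genes, sat at the threshold: it was lost with RLE scaling (adjusted p = 0.0517), with no filter on low counts (0.0952), with the replicate number as a block (0.110) and with the library of mouse 1 put back (0.57, adjusted p = 0.186). Ntf3 was called by DESeq2 (adjusted p = 0.0165).

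The male calls on the ligands depend on which libraries enter. The library of mouse 1 goes against its male label by Xist, so putting it back may add a library from outside the group. With it put back, the log2 fold change was -0.38 for Bdnf (adjusted p = 0.146) and -1.12 for Ntf3 (adjusted p = 0.0513). Then 294 genes were called in place of 1332. With that library 1 of 8 IF mice lay under the lowest AL mouse for Bdnf and 4 of 8 for Ntf3. Leaving out 1 of the 15 male cortex mice at a time, Bdnf was called in 14 of 15 fits and lost without IF mouse 14 (-0.42, adjusted p = 0.0501), while Ntf3 was called in all 15. The count of all genes called moved by more than 1.5 times without AL mouse 2 (638), AL mouse 3 (766), AL mouse 5 (771), IF mouse 11 (877), IF mouse 12 (2060), IF mouse 13 (866) or IF mouse 14 (823). With AL mouse 2 and IF mouse 9 both left out, neither Bdnf (adjusted p = 0.0571) nor Ntf3 (0.0661) was called, and with AL mouse 2 and IF mouse 10 left out Ntf3 was not (0.0707). With the replicate number as a block, which the labels do not say pairs mice, Bdnf was not called either (adjusted p = 0.0763). Over the 30 settings with an adjusted p that were run, marker covariates included, Bdnf was called in 23, with p from 0.00493 to 0.824, and Ntf3 in 25, with p from 0.00112 to 0.712.

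Markers of other cells moved with these 2 calls. In male cortex 4 of 5 oligodendrocyte markers rose, Mbp by 0.59 (adjusted p = 0.0091), Mobp by 0.66, Mog by 0.53 and Mag by 0.37 on the log2 scale. Their summed level ran from 4309 to 6706 CPM in AL and from 5847 to 9762 in IF males, with the myelin protein gene Mbp the most abundant and none of the list at 0. With the mean log2 level of the list as a covariate, chosen after seeing the data, the log2 fold change was -0.19 for Bdnf (adjusted p = 0.824) and -0.95 for Ntf3 (adjusted p = 0.712). In that fit edgeR called 0 genes of the whole table, where without the covariate 4400 had an unadjusted p under 0.05 and DESeq2 called 2259. The list itself differed between the diets, and the SE widened with it, for Ntrk3 from 0.060 to 0.093. A lost call in this fit therefore cannot tell the part of the list from that of the diet. With the same covariate the interaction of Bdnf was 0.39 (adjusted p = 0.998) and that of Ntf3 0.95 (adjusted p = 0.998), and 2 genes were called in place of 397. In females the sum of the list ran from 5560 to 9425 CPM in AL and from 4911 to 7802 in IF. The list's part in the lower ligand levels was not tested beyond these fits.

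Markers of other brain regions also varied between cortex libraries. Of 5 striatum markers 0 passed the test in male cortex, but their sum, led by Ppp1r1b, ran from 132 to 1557 CPM in AL and from 455 to 1486 in IF males; with the list as a covariate, also chosen after seeing the data, Bdnf stood at -0.35 (adjusted p = 0.105) and Ntf3 at -1.34 (adjusted p = 0.0272). Choroid plexus markers, 0 of 4 called and led by Ttr, ran from 5.05 to 3143 CPM in AL and from 4.42 to 3434 in IF males. Without the libraries over 500 CPM of them (AL mice 2 and 4, IF mice 11 and 14), a choice made after seeing the data, Bdnf stood at -0.42 (adjusted p = 0.221) and Ntf3 at -0.98 (adjusted p = 0.182). Of 4 hippocampus markers Wfs1 fell by 0.36, and their sum ran from 95.4 to 158 CPM in AL and from 94.3 to 116 in IF males. In the remaining lists the astrocyte gene Aqp4 fell by 0.51 (1 of 5), the endothelial Cldn5 fell by 0.43 (1 of 4) and Cdh19, of the Schwann cell list, rose by 0.46 (1 of 4 tested). No marker was called among neurons (0 of 7), oligodendrocyte precursors (0 of 2), microglia, mural cells, fibroblasts (0 of 4 each) and blood (0 of 5). In female cortex 0 markers of any list were called by edgeR.

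Among the receptors in male cortex, Ntrk2 stood lower in most IF mice without passing the test. It ran from 404 to 463 CPM with a median of 429 in AL, and from 356 to 415 with a median of 386 in IF. Of the 8 IF mice, 6 lay under the lowest AL mouse, and 0 did with the library of mouse 1 put back. The log2 fold change by edgeR was -0.13 (SE 0.05, adjusted p = 0.121), and DESeq2 called it (adjusted p = 0.0474), the 1 call in 30 settings with an adjusted p. Ntrk3 ran from 91.2 to 111 CPM in AL and from 92.8 to 124 in IF (medians 97.8 and 104), and Ngfr from 1.25 to 2.904 and from 1.43 to 2.98 (medians 1.73 and 2.14). Both overlap over most of their range, with log2 fold changes of 0.10 and 0.17, and Ngfr turned to -0.13 with oligodendrocyte markers as a covariate and to -0.0561 without the choroid plexus libraries.

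In female cortex Ntrk2 ran from 307.4 to 426 CPM in AL and from 308 to 442 in IF, with medians of 368 and 388. Ntrk3 ran from 81.0 to 111 and from 82.7 to 118 CPM (medians 83.1 and 99.0), and Ngfr from 1.81 to 3.205 and from 1.69 to 4.05 (medians 2.36 and 2.81). The diets overlap for all 3 receptors, with log2 fold changes of 0.04, 0.14 and 0.12, of which those of Ntrk2 (-0.0051) and Ngfr (-0.0264) turned without IF mice 34 and 36. Neither Ntrk2 (0.18), Ntrk3 (0.04) nor Ngfr (-0.04) was called for an interaction of sex and diet, and that of Ngfr turned with mouse 1 put back (0.0012) and with oligodendrocyte markers as a covariate (0.14). Set per length against its preferred ligand, TrkB message stood at 4.52 ± 0.488 times that of Bdnf in cortex of AL males (SD, n = 7) and at 5.81 ± 1.27 times in IF males (n = 8). In females this ratio was 5.48 ± 0.670 in AL and 5.01 ± 1.03 in IF. The diets overlap within their spread in both sexes. The ratio of Ntrk3 to Ntf3 was 3.34 ± 1.83 in AL males, 8.15 ± 4.12 in IF males, 3.69 ± 1.16 in AL females and 4.07 ± 2.28 in IF females. Here too the diets overlap within their spread in both sexes. Neither ratio was tested.

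**Figure D2:**
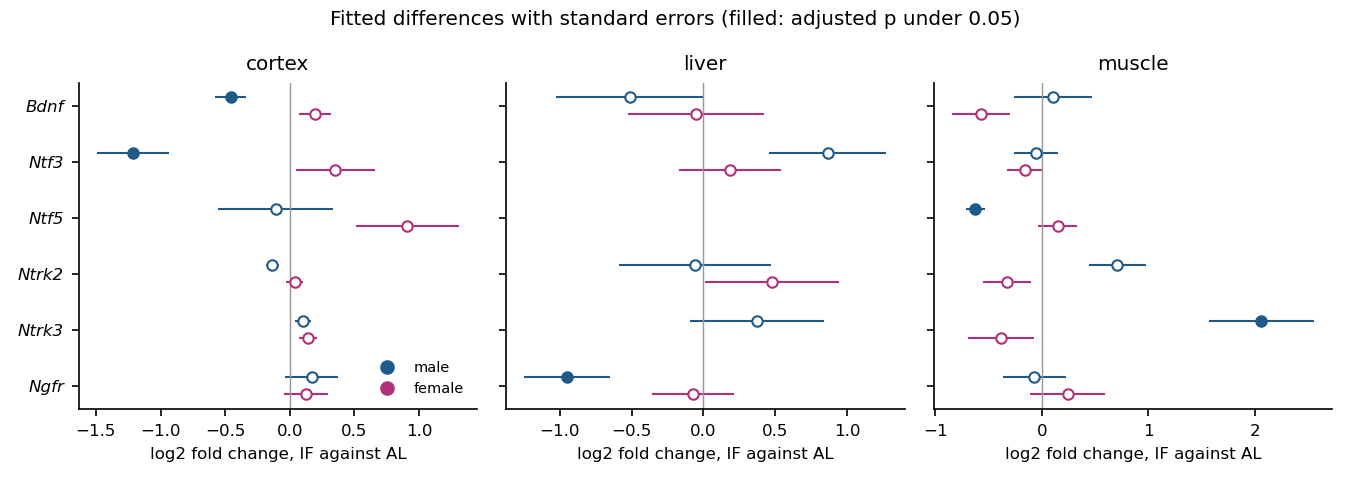
Log2 fold change of IF against AL with its SE for the 5 genes and for Ntf5, 1 panel a tissue, males and females in separate colours. Filled points passed the edgeR test, which males did for Bdnf and Ntf3 in cortex, Ngfr in liver, and Ntrk3 and Ntf5 in muscle; no female point did.

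In liver of males the p75 gene Ngfr was lower under IF. It ran from 1.33 to 4.96 CPM with a median of 2.10 in AL and from 0.821 to 2.35 with a median of 1.14 in IF. Of the 8 IF mice, 5 lay under the lowest AL mouse, and AL mouse 1 held the top value. Ngfr fell by 0.95 on the log2 scale (SE 0.30, edgeR adjusted p = 0.0123), 1 of 5 members called beside 44.6% of all 16204 genes, a share under the background. The median log2 fold change of the members was -0.06 beside 0.06 for all genes. Without AL mouse 1, left out after seeing the data, Ngfr stood at -0.72 (adjusted p = 0.0496). In female liver Ngfr ran from 1.18 to 2.59 CPM in AL and from 0.718 to 2.94 in IF, with a log2 fold change of -0.07, and the interaction was 0.91 (SE 0.41, adjusted p = 0.107).

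The other 4 members overlap between the diets in liver. In AL and IF males Bdnf lay within 0 to 2.05 CPM, Ntf3 within 0.230 to 2.43, Ntrk2 within 0.0735 to 1.31 and Ntrk3 within 0.111 to 2.42. Ntf3 came nearest to the threshold, with medians of 0.560 and 1.20 CPM, a log2 fold change of 0.87 (SE 0.41, adjusted p = 0.0875) and a call without AL mouse 2 and IF mouse 10 (1.11, adjusted p = 0.0427), the 1 call in 9 alternatives with an adjusted p. With blood genes as a covariate it stood at 0.39 (adjusted p = 0.655). In female liver Ntrk2 was the highest of them, at 0.974 to 4.55 CPM in AL and 0.205 to 7.37 in IF. Of the 4 members tested there 0 were called, beside 0% of all 15938 genes by edgeR, where 919 had an unadjusted p under 0.05 and DESeq2 called 6. For the interaction of sex and diet in liver 0 of 5 were called, beside 23.7% of all 17658 genes, where edgeR gave 6102 genes an unadjusted p under 0.05.

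Blood markers moved with the liver comparison. Of 5, Hba-a1 rose by 1.70, Hbb-bs by 3.17 and Hbb-bt by 2.67 on the log2 scale in IF males, and the sum of the list ran from 362 to 956 CPM in AL and from 667 to 6879 in IF, mouse 9 being the highest. Hba-a1 was the most abundant and none was at 0. With the list as a covariate Ngfr stood at -1.06, against -0.95 without it, and was no longer called (adjusted p = 0.0739). In that fit 3995 genes were called in place of 7234. The list differed between the diets, so the lost call cannot tell the part of blood from that of the diet. Other lists moved as well. In male liver the fibroblast genes Dcn (0.74) and Lum (1.44) rose, 2 of 4, and their list's sum ran from 41.5 to 87.5 CPM in AL and from 88.6 to 154 in IF. The endothelial Flt1 rose by 0.40 (1 of 4), the mural Kcnj8 by 1.14 (1 of 4) and Prx, of the Schwann cell list, by 2.43 (1 of 3 tested), a list whose sum was at most 8.06 CPM. Of 4 hepatocyte genes Cyp2e1 rose by 1.55 and Apoa1 fell by 0.48. Among the genes called from lists written for brain, Slc1a2 (1.28), Gja1 (1.12) and Aldh1l1 (0.31) of the astrocytes, Pdgfra (0.69), Ppp1r1b (0.81) and Syt1 (0.61) rose, and Aqp4 (by 0.90) and Wfs1 (by 0.70) fell. The oligodendrocyte list, with 3 genes tested, had 1 called up and 1 called down. Stellate cells and microglia had 0 of 4 called each, and adipocytes and choroid plexus 0 of 1 each. The part of blood in the result was not tested otherwise, and that of the other lists was not tested.

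In muscle of males both Trk receptors were higher in some IF mice. Ntrk3 ran from 0.249 to 1.19 CPM with a median of 0.591 in AL and from 0.974 to 9.13 with a median of 1.65 in IF. Of the 8 IF mice 5 lay above the highest AL mouse, and mice 12, 9 and 10 held 9.13, 4.29 and 2.89 CPM. Ntrk2 ran from 3.65 to 6.37 CPM with a median of 4.27 in AL and from 2.86 to 17.8 with a median of 7.06 in IF, again with 5 of 8 above the highest AL mouse. Ntrk3 rose by 2.06 on the log2 scale (SE 0.49, edgeR adjusted p = 0.0068), 1 of 5 members beside 23.0% of all 15025 genes, near that share. The median of the members was 0.11 beside 0.01 for all genes. Ntrk2 stood at 0.71 (SE 0.27, adjusted p = 0.0669) and was called by DESeq2 (0.0454), in a fit over both sexes (0.0452) and with the replicate number as a block (0.59, adjusted p = 0.0224). Without IF mouse 12, left out after seeing the data, Ntrk3 stood at 1.52 (adjusted p = 0.00462) and Ntrk2 at 0.44 (adjusted p = 0.110).

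Adipocyte markers rose in the same muscles. Of 4, the fat hormone gene Adipoq rose by 2.25 (adjusted p = 0.0192), Plin1 by 2.20 and Cidec by 2.52 on the log2 scale, and Lep was not called. Their sum ran from 9.81 to 121 CPM in AL and from 35.8 to 613 in IF males, with Cidec, of the lipid droplet, the most abundant. Mice 12, 10 and 9 held 613, 428 and 298 CPM, the same mice that were highest for Ntrk3. With the list as a covariate, chosen after seeing the data, Ntrk3 stood at 1.04 (adjusted p = 0.0826) and Ntrk2 at 0.11 (adjusted p = 0.768). Schwann cell markers, which mark the nerve in the muscle, were called in 0 of 5, with a sum of 45.7 to 204 CPM in AL and 54.0 to 231 in IF males, and with them as a covariate Ntrk3 stood at 2.07 (adjusted p = 0.00943). In females the adipocyte sum ran from 27.1 to 154 CPM in AL and from 5.30 to 133 in IF. Of the hepatocyte list Cyp2e1 rose by 4.02 in male muscle, while Cps1, of the urea cycle, had a mean under 0.1 CPM in both diets. Also in male muscle, the fibroblast genes Col1a1 (by 0.58) and Col1a2 (by 0.37) fell, 2 of 4, as did the mural Kcnj8 by 0.51 (1 of 4), the fibre gene Ckm by 0.19 (1 of 4), Csf1r, of the microglia list, by 0.44 (1 of 2) and Des, of the stellate list, by 0.24 (1 of 2). Of 3 astrocyte genes Gja1 rose by 0.59 and Aldh1l1 by 0.51. Endothelium (0 of 4), blood (0 of 5) and the other brain lists had none. With blood genes as a covariate Ntrk3 stood at 2.02 (adjusted p = 0.00692) and Ntrk2 at 0.62 (adjusted p = 0.0882). Lists other than blood, adipocytes and Schwann cells were not fitted in muscle, and their part was not tested.

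**Figure D3:**
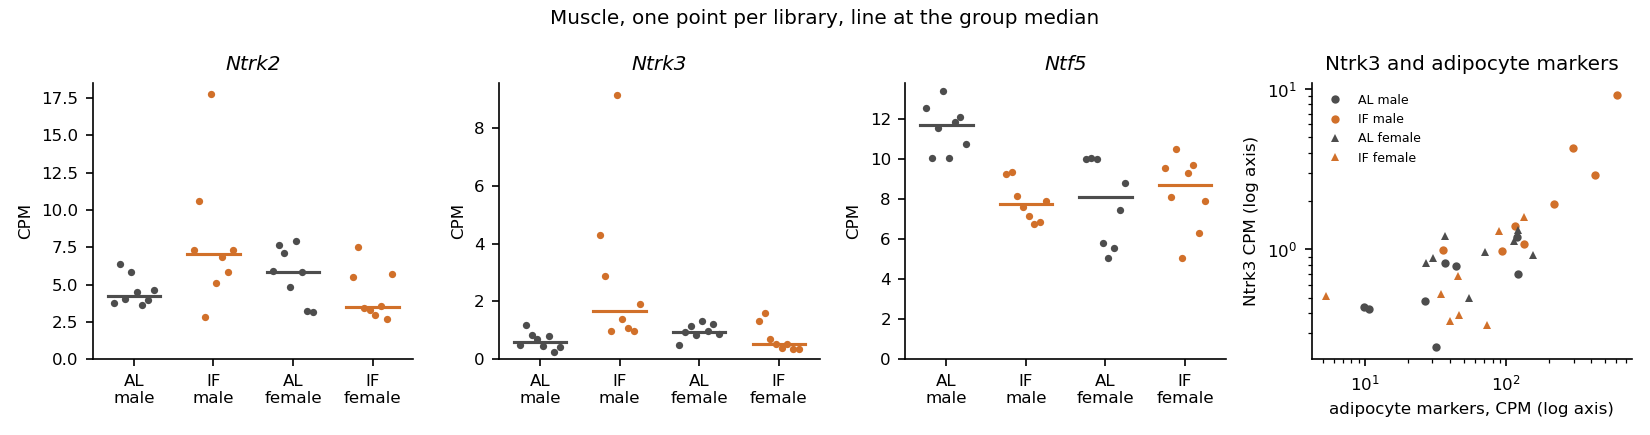
Level in CPM of Ntrk2, Ntrk3 and Ntf5 in each muscle library by sex and diet, with 1 point per mouse and a line at the group median, and, on log axes, Ntrk3 against the summed CPM of 4 adipocyte markers. IF male mice 9, 10 and 12 lie at the top right of that panel, at 2.89 to 9.13 CPM of Ntrk3 and 298 to 613 CPM of the markers.

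In muscle of females Ntrk3 ran from 0.496 to 1.33 CPM in AL and from 0.340 to 1.59 in IF, and Ntrk2 from 3.17 to 7.90 and from 2.67 to 7.53. The diets overlap, and the log2 fold changes were -0.38 (adjusted p = 0.684) and -0.33. None of the 5 was called in female muscle, beside 0.00653% of all 15308 genes, which is 1 gene by edgeR, Rn18s-rs5 (log2 fold change 1.003, named after its value was seen), with 1644 genes at an unadjusted p under 0.05 and 91 by DESeq2. The interaction of Ntrk3 was -2.42 (SE 0.57, adjusted p = 0.00435), and -1.90 (adjusted p = 0.0085) without IF mouse 12, with 1 of 5 members called beside 14.2% of all 16346 genes. With adipocyte markers as a covariate it was -1.48 (adjusted p = 0.0384). That of Ntrk2 was -1.01 (adjusted p = 0.0549), and it was called by DESeq2 (adjusted p = 0.0205) and with the replicate number as a block (-0.90, adjusted p = 0.0281). With adipocyte markers it was -0.24 (adjusted p = 0.594), and without IF mouse 12 -0.76 (adjusted p = 0.105).

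The ligands and p75 overlap between the diets in muscle. In males Bdnf lay within 0.152 to 1.04 CPM over both diets, Ntf3 within 0.685 to 1.99 and Ngfr within 0.349 to 1.04, with log2 fold changes of 0.11, -0.05 and -0.07. Each of these turned in sign under some setting, Bdnf without IF mouse 12 (-0.0820) or with adipocyte markers (-0.0181), Ntf3 without AL mouse 2 and IF mouse 10 (0.0525), IF mouse 9 (0.0035) or with Schwann cell markers (0.0011), and Ngfr with adipocyte markers (0.0729). In females Bdnf ran from 0.858 to 2.09 CPM with a median of 1.33 in AL and from 0.358 to 1.63 with a median of 0.816 in IF. Of those 8 IF mice 5 lay under the lowest AL mouse, with a log2 fold change of -0.57 (SE 0.27, adjusted p = 0.464). Female Ntf3 lay within 1.19 to 2.52 CPM and Ngfr within 0.798 to 4.92.

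Another gene of the family adds a ligand that the 5 leave out. Ntf5, the gene of neurotrophin-4, a ligand of TrkB made by muscle fibres, ran from 10.03 to 13.4 CPM in muscle of AL males and from 6.78 to 9.35 in IF males. The groups do not overlap, and Ntf5 fell by 0.62 (SE 0.09, adjusted p = 4.89e-05) on the log2 scale. The share of all genes without overlap was not counted, and 23.0% of all genes were called in this comparison. In females it ran from 5.08 to 10.1 and from 5.07 to 10.5 CPM, overlapping throughout, and the interaction was 0.79 (SE 0.22, adjusted p = 0.0119). The span of Ntf5 overlaps that of Ruvbl2 on the other strand, so part of its count may be reads of that gene. In cortex Ntf5 was not called in either sex.

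Of 143 genes on 8 lists of the wider pathway, 138 were tested in male cortex and 8 passed, 4 up and 4 down, or 5.8% beside 7.21% of all genes. Besides Bdnf and Ntf3 these were Ptpn11, Gab2, Pcsk7 and Rapgef1, up, and Camk2d and Crk, down. Ptpn11, the phosphatase SHP2 that links Trk receptors to RAS, ran from 94.7 to 124 CPM in AL and from 114 to 184 in IF, with 7 of 8 IF mice above the highest AL mouse. It rose by 0.51 on the log2 scale (adjusted p = 0.00203). Camk2d, a calcium-dependent kinase, ran from 55.4 to 111 CPM in AL and from 35.9 to 56.7 in IF, with 7 of 8 below the lowest AL mouse. It fell by 0.72 (adjusted p = 0.00899). Of the other genes, the docking protein gene Gab2 rose by 0.39, the convertase gene Pcsk7 by 0.35 and Rapgef1, an exchange factor for the GTPase RAP, by 0.27, and the adaptor gene Crk fell by 0.22. Leaving out 1 mouse at a time, Crk was lost without AL mouse 2 and Rapgef1 was called in 4 of 15 fits. With the library of mouse 1 put back Camk2d (adjusted p = 0.0546), Gab2 (0.0849), Pcsk7 (0.0769), Crk (0.0924) and Rapgef1 (0.0745) were no longer called, and with oligodendrocyte markers as a covariate or without the choroid plexus libraries none of the 8 was. With that library 3 of 8 IF mice lay below the lowest AL mouse for Camk2d, and still 7 of 8 above the highest for Ptpn11. Pcsk7, Crk and Rapgef1 were also lost with the replicate number as a block and without AL mouse 2 and IF mouse 9 or 10, Crk with striatum markers (adjusted p = 0.0736), and Rapgef1 with hippocampus (0.0946) or choroid plexus markers (0.0504).

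By list in male cortex, 0 of 13 receptors and co-receptors, 0 of 26 genes of p75 signalling, 0 of 15 activity-regulated and Trk-responsive genes and 0 of 13 regulators of Bdnf transcription were called. The median log2 fold change of the activity-regulated genes, which include Fos, Arc, Egr1 and Npas4, was -0.29 beside -0.00 for all genes. Called were 5 of 45 Trk adaptors and kinases, 1 of 9 genes that cleave pro-neurotrophins, 2 of 4 ligands and 0 of 14 genes of other neurotrophic factor families. In female cortex 0 of 136 were called, where the medians were -0.12 for the activity-regulated genes and 0.04 over all lists. For the interaction, Camk2d stood at 1.0002 (adjusted p = 0.0108) and Crk at 0.24 (adjusted p = 0.0483), both called, against Ptpn11 at -0.44 (0.0518), Gab2 at -0.31 (0.246), Pcsk7 at -0.26 (0.320) and Rapgef1 at -0.18 (0.421).

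In male liver 50 of 114 pathway genes were called, 33 up and 17 down, or 43.9% beside the 44.6% of all genes. The lowest p belonged to Gfra1, the receptor subunit for glial cell line-derived neurotrophic factor, at 8.13 to 13.5 CPM in AL and 34.9 to 62.0 in IF males. It rose by 2.04 on the log2 scale (adjusted p = 3.29e-11), with an interaction of -1.97. Next came Psen2, a subunit of the protease that cleaves p75, which fell by 1.07, and Rapgef1 (0.85), Hras (1.05) and the pro-apoptotic Bad (1.06), which rose; their interactions were 0.92, -0.76, -0.80 and -0.95, all called. In male muscle 37 of 126 were called, 12 up and 25 down, or 29.4% beside 23.0%. The orphan nuclear receptor gene Nr4a1 ran from 92.7 to 112 CPM in AL and from 162 to 226 in IF males and rose by 0.87 (adjusted p = 3.36e-08). The adaptor gene Gab1 rose by 0.74, while the adaptor gene Shc2 fell by 0.91 and the transcription factor gene Srf fell by 0.45. Their interactions, in the order given from Nr4a1, were -0.70, -0.71, 0.96 and 0.72, all called. In females 0 of 109 were called in liver and 0 of 127 in muscle, where edgeR called 0 and 1 of all genes and the unadjusted and DESeq2 counts are those given above.

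Likeness was measured over the 31 cortex libraries as the correlation of log2 CPM after the mean of each sex and diet group was taken off, among 15404 genes. The points share tissue and sequencing, and correlations are given as a description, with no test. Nearest to Bdnf were the activity-induced transcription factor genes Egr2 (Pearson r 0.832, Spearman rho 0.795, and r 0.733 without the 2 mice farthest from the median) and Nr4a3 (0.818, 0.795 and 0.736), and Cyp51, of cholesterol synthesis (0.800, 0.808 and 0.776). For Ntf3 they were Mapk3, of the kinase ERK1 (0.869, 0.869 and 0.830), Efcab1 (0.865, 0.800 and 0.806) and Nnat, of neuronatin (0.853, 0.778 and 0.782). For Ntrk2 they were Emp2, a membrane protein gene (0.8293, 0.820 and 0.783), the receptor tyrosine kinase gene Axl (0.813, 0.7097 and 0.758) and the lipid phosphatase gene Plpp3 (0.804, 0.632 and 0.687). For Ntrk3 they were Tnr, of the matrix protein tenascin-R (0.913, 0.860 and 0.892), Tsr1, of ribosome assembly (0.906, 0.892 and 0.880), and Strn3 (0.896, 0.842 and 0.895). For Ngfr they included the matrix metalloproteinase gene Mmp15 (0.739, 0.727 and 0.732) and Elmo3 (0.682, 0.677 and 0.662). Between members, r was 0.523 for Bdnf with Ntrk2, 0.404 for Ntrk2 with Ntrk3, 0.357 for Bdnf with Ntf3, 0.290 for Ntf3 with Ntrk2 and -0.289 for Ntf3 with Ntrk3, and the other 5 of the 10 pairs lay from -0.0218 to 0.149.

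One of the Bdnf promoters is printed because Bdnf was lower in male cortex and one of its start regions holds a cyclic AMP response element, a motif known from genes that answer neuronal activity. The RefSeq promoter table (build GRCm38.p6, 250 bases before to 50 after a start) matched 4 of the 6 family genes named here, Bdnf, Ntf3, Ngfr and Ntrk2, with 7 windows for Bdnf. Of 5 motifs searched on both strands, the element TCACGTCA occurs once in the 7 windows and in 0.441% of all 32851. It was taken as the form known from a Bdnf promoter, so finding it there was fixed by the choice of motif, and the share only describes the letters. The palindrome TGACGTCA occurs in none of the 7 and in 1.79% of all, and TGACG, whose match here is on the other strand and overlaps the element, in 20.8%. The E-box CACGTG (7.15% of all windows) and the EGR1 box GCGGGGGCG (2.91%) occur in none of the 7, and CACGTG occurs in 1 window of Ntf3. The window that holds it, on the plus strand at chr2:109692186-109692485, is printed with the element in capitals.
Bdnf: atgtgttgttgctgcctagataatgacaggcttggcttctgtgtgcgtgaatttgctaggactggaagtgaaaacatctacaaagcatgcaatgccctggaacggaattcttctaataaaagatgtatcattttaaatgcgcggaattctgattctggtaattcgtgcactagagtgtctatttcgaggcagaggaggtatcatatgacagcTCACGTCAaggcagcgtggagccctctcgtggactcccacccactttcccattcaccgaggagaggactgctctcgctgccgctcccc
A match is a description, not a site or a cause, and gene counts do not say which of the 7 starts was used in these mice.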

How the data were processed

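Poly-A RNA from cortex, liver and muscle was sequenced from a directional library, and the deposited table holds raw counts per gene that the authors made with HISAT2 and featureCounts on GRCm39. CPM scales each count by the library's total, and CPM per kb divides it by the gene length in that table. Tests used edgeR 4.0.16 in R 4.3.3 on the whole table (TMM scaling, filterByExpr with a minimum count of 10, robust quasi-likelihood, Benjamini-Hochberg at 0.05). IF was compared with AL in each tissue and sex, the sex by diet interaction was fitted in each tissue, and tissues were compared within AL with the mouse as a block. SE is the log2 fold change over the root of F. DESeq2 1.42.0 was an alternative. Levels, correlations and plots came from Python 3.11.15 (numpy 2.4.6, pandas 2.3.3, matplotlib 3.10.9). The pipeline was tested on simulated data, where false calls came above the rate asked for and most of the smaller changes went uncalled.

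Named are the 5 members in every fit, Ntf5, from the pathway lists up to 10 genes in a cortex comparison and 5 in liver or muscle by lowest p among those called, and for each member the 3 genes most like it. Pathway and marker lists were written by hand, and members and lists were chosen with earlier results of these data known. The cortex library of AL male mouse 1 was left out. Some genes that this rule or the lists take are not reported here.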

Additional observations from a re-analysis of the deposited data

Results flagged for a closer look

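Values that stood far from the rest of their group of 7 or 8 mice were looked for at both ends of the 60 groups of the 5 genes. If values follow a normal distribution, chance gives such a gap in about 1 group of 20. Low CPM need not follow one, so that rate may not hold here. Those found were all the highest of their group. No explanation was weighed for them here. Marker levels for cortex of mouse 36 and muscle of mouse 12, and fits without these mice, are given above. Bdnf was at 40.3 CPM in cortex of AL male mouse 8, next to 31.4, and without it the group mean went from 31.1 to 29.5. Ntf3 was at 4.65 CPM in cortex of IF female mouse 36, next to 2.22, and at 2.52 CPM in muscle of the same mouse, next to 1.71. Ngfr was at 4.96 CPM in liver of AL male mouse 1, next to 2.87, and the mean went from 2.42 to 2.06 without it. Ntrk3 was at 9.13 CPM in muscle of IF male mouse 12, next to 4.29, and the mean went from 2.83 to 1.93 without it. In liver Ntrk3 was at 2.42 CPM in IF male mouse 13, next to 1.01, and at 1.17 CPM in AL female mouse 31, next to 0.620. Bdnf was at 0.907 CPM in liver of AL female mouse 27, next to 0.455.

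The diet effect differed between the sexes, by the edgeR interaction, for Bdnf in cortex (0.65), and for Ntrk3 (-2.42) and Ntf5 (0.79) in muscle, on the log2 scale. Sex cannot be told apart here from the set of mice, whose regimen and age are not given for females. The call on Bdnf (adjusted p = 0.0493) held in 1 of 6 alternatives, with p from 0.0182 to 0.998. The library left out, labelled cortex of AL male mouse 1, held 213 CPM of Xist.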

How the results depend on the processing

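Values are log2 fold changes of IF against AL, or counts of genes called, and the cause of each change below was not tested. Of the fitted values of the 5 genes under alternatives, 643 kept direction and call, 23 lost the call, 14 gained it and 19 turned direction. Markers other than blood as covariates, libraries left out for choroid plexus markers, mouse 1 put back in the interaction, and AL mouse 1 of liver, IF mouse 12 of muscle and IF mouse 36 of cortex left out, and library totals alone as the scaling between tissues were chosen after seeing the data.

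In male cortex, against 1332 genes, the count was 4400 at an unadjusted p under 0.05, 2259 by DESeq2, 382 with a replicate block, 2044 in 1 fit over both sexes, 498 without mice 2 and 10, 379 without mice 2 and 9, 294 with mouse 1 put back, 782 with striatum, 0 with oligodendrocyte and 706 with hippocampus markers as a covariate, 76 without libraries over 500 CPM of choroid plexus markers, and 638 to 2060 leaving out 1 mouse. Bdnf stood at -0.50 with the block, -0.50 without mice 2 and 9, -0.38 with mouse 1, -0.35 with striatum, -0.19 with oligodendrocytes, -0.42 without choroid plexus libraries, and -0.50 to -0.39 leaving out 1 mouse. Ntf3 stood at -1.03 without mice 2 and 10, -1.09 without 2 and 9, -1.12 with mouse 1, -0.95 with oligodendrocytes and -0.98 without choroid plexus libraries. Ntrk2, at -0.13, was called at an unadjusted p and by DESeq2. Turned in sign were Ngfr (-0.13 with oligodendrocytes, -0.0561 without choroid plexus libraries) and Ntf5 (0.0188 without mice 2 and 10, 0.0562 with oligodendrocytes, -0.37 to 0.19 leaving out 1 mouse).

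In female cortex, against 2 genes, the count was 2069 unadjusted, 73 by DESeq2, 0 with a block, 4 in 1 fit, 0 with blood, 1 with oligodendrocyte, 0 with hippocampus and 1 with choroid plexus markers, 1 without choroid plexus libraries (IF mice 34 and 36), 1 without mouse 36, and 0 to 254 leaving out 1 mouse. Without choroid plexus libraries Ntf3 (-0.0598), Ntrk2 (-0.0051) and Ngfr (-0.0264) turned. For the interaction in cortex, against 397, the count was 706 by DESeq2, 220 with no filter, 81 with mouse 1 and 2 with oligodendrocytes. Bdnf stood at 0.65 with RLE scaling, 0.66 with no filter, 0.69 with a block, 0.57 with mouse 1 and 0.39 with oligodendrocytes, Ntf3 was called by DESeq2 (1.57), and Ngfr turned with mouse 1 (0.0012) and oligodendrocytes (0.14).

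Liver counts were 3995 with blood in males against 7234, and 919 unadjusted and 6 by DESeq2 in females against 0 by edgeR. In male liver Ntrk2 (0.19 with blood, 0.11 without mice 2 and 10) turned. Muscle counts were 5309 unadjusted in males against 3463, and 1644 unadjusted, 91 by DESeq2, 5 with no filter and 38 in 1 fit in females against 1. In male muscle Ntf3 (0.0525 without mice 2 and 10, 0.0035 without 2 and 9, 0.0011 with Schwann cell markers), Bdnf (-0.0181 with adipocytes, -0.0820 without mouse 12) and Ngfr (0.0729 with adipocytes) turned. Between tissues of AL mice, library totals alone turned Ntf3 in cortex against muscle of males (0.48) and against liver of females (0.40), Ngfr in cortex against liver (0.49) and muscle (0.38) of females, and Ntf5 in cortex against liver of males (0.67). At these depths, members under 1 CPM rest on few counts, which limits their precision.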
